A study of Mus musculus with 4 samples.

Results

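Transcripts of 10 prostaglandin genes were described in mouse colonic organoid cultures profiled by single-cell RNA sequencing. The members were chosen by name, as the rows of the deposited gene table whose gene symbol was Pla2g4a, Ptgs1, Ptgs2, Ptges, Ptges2, Ptges3, Ptgis, Hpgd, Ptger2 or Ptger4, and they made up 10 of the 30360 genes in that table. Organoids are small epithelial structures grown from tissue fragments in a gel, and these came from the distal colon of wildtype and Tnfr2-/- mice, 16 weeks old by the labels; the Tnfr2-/- mice carry a germline null allele (Tnfrsf1b tm1Mwm) and so lack TNF receptor 2 in every cell. Untreated cultures received vehicle; treated ones received TNF (20 ng/ml) between day 1 and day 6 of the culture that followed passage 5, and all were taken at day 7. The study's culture methods give a younger age than the labels and name 3 mice per genotype and experiment; which mice stand behind each sequenced culture is not given in the sources used here. There was 1 library per condition, so no difference below has a replicate check and no p-value is given. Mesenchymal cells grew in the same gel as the epithelium, so a response of either cell type to TNF cannot be told apart from a response to the other.

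Prostaglandins are short-lived lipid signals made from arachidonic acid. A cytosolic phospholipase A2 (Pla2g4a) frees the fatty acid from membranes, the cyclooxygenases (Ptgs1, constitutive in many tissues, and Ptgs2, inducible by cytokines) turn it into prostaglandin H2, and terminal synthases then make prostaglandin E2 (Ptges, Ptges2, Ptges3) or prostacyclin (Ptgis). Hpgd inactivates prostaglandin E2, and the receptors EP2 and EP4 (Ptger2, Ptger4) read it through cyclic AMP; in the colon this axis is known for its part in wound repair and in tumour growth.

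The 4 libraries held 980 to 2589 cells with medians of 26293 to 39112 unique molecular identifiers (UMIs, each standing for 1 captured transcript) per cell. The deposited annotation put them in 7 epithelial and 4 mesenchymal classes, and left 35 cells without a class. Below, values of the 4 libraries are given in the order untreated wildtype, TNF-treated wildtype, untreated Tnfr2-/- and TNF-treated Tnfr2-/-. In that order there were 1128, 1163, 1023 and 858 epithelial cells and 1430, 306, 90 and 122 mesenchymal cells. The 6 fibroblast markers (Pdgfra, Col1a1, Col1a2, Col3a1, Dcn, Vim) summed to 9188 to 14998 CPM (the UMIs of a gene scaled to a common library total) in mesenchymal cells and 5.21 to 22.6 CPM in epithelial cells. Tnfrsf1b, which encodes TNF receptor 2, gave 9.76, 14.0, 2.05 and 7.59 CPM over all cells. The deleted part of its allele is not given in the sources used here, and a 3' tag outside that part checks neither the loss nor the labels.

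The promoters of 5 members are shown: Ptgs2, Ptges, Hpgd and Ptger4, whose TNF differences are described below, and Ptgs1 as the other cyclooxygenase. The sequences are RefSeq's for GRCm38.p6, from 250 bases before to 30 bases after the annotated start, and 9 of the 10 members had an entry. They lie at chr1:150099781-150100060 (Ptgs2, plus strand), chr2:30903268-30903547 (Ptges, minus strand), chr8:56294302-56294581 (Hpgd, plus strand), chr15:5244158-5244437 (Ptger4, minus strand) and chr2:36230176-36230455 (Ptgs1, plus strand). Capitals mark the letters of a searched motif on either strand. Of the other members, Pla2g4a lies near Ptgs2 (chr1:149829618-149961290), Ptges2 at chr2:32395896-32405772, Ptgis at chr2:167191805-167240604, Ptges3 at chr10:128058954-128077272 and Ptger2 at chr14:44988195-45003820. These are gene bodies of GENCODE M21 on GRCm38, where that of Ptger4 lies at chr15:5206661-5244187.

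Ptgs2: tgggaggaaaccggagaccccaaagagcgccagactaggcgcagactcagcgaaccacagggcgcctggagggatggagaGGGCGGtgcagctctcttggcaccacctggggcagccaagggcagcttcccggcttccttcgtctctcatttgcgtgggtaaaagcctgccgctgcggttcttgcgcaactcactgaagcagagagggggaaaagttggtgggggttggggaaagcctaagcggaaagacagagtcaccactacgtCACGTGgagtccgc
Ptges: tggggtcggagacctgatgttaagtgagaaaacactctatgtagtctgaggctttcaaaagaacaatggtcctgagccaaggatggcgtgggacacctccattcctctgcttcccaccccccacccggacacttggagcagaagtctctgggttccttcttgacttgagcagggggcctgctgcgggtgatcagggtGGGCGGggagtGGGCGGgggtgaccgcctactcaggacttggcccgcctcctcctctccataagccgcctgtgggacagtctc
Hpgd: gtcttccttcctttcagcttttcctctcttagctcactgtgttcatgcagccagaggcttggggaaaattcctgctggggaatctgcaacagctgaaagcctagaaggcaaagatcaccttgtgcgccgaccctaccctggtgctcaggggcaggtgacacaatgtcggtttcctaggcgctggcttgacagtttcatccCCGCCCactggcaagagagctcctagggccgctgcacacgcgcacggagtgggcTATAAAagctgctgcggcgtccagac
Ptger4: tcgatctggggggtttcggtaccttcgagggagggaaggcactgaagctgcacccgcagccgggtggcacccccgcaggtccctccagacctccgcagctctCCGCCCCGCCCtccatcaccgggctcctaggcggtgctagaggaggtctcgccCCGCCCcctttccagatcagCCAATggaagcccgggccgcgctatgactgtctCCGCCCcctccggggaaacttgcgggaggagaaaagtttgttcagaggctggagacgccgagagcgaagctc
Ptgs1: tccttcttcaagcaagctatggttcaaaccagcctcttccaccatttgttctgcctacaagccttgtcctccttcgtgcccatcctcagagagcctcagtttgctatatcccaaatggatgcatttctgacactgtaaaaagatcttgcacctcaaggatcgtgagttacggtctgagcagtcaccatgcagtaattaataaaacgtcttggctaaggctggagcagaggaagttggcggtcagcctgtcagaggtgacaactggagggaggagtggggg

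In Ptgs2 the capitals are a GC box (GGGCGG) whose first base is at -170 and an E-box (CACGTG) at 17, counted from the annotated start. Ptges held 2 GC boxes, at -53 and -42. Hpgd held a GC box on the other strand at -50 and a TATA box (TATAAA) at 5. Ptger4 held 4 GC boxes on the other strand, at -148, -143, -95 and -42, the first pair sharing a base, and a CCAAT box at -75. None of the searched letters lay in the window of Ptgs1. The search ran to 50 bases after the start. Over the same windows of 32851 promoters, a GC box was found in 35.7%, a TATA box in 13.6% and an E-box in 7.15%. The other motifs searched on both strands were the CCAAT box (CCAAT, in 37.4% of promoters), the cAMP response element (TGACGTCA, 1.79%), AP-1 (TGANTCA, 7.81%) and NF-kB by name (8.46%); apart from the CCAAT box of Ptger4, none of these was in the windows shown, which says only that those letters are not there.

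The members separated by cell type before any comparison of treatment. Both cyclooxygenases, Ptges and Ptger2 were mesenchymal transcripts, Hpgd was epithelial, and Pla2g4a, Ptges2 and Ptges3 were found in both. Mesenchymal cells were 55.9%, 20.8%, 8.09% and 12.4% of the cells with a class, yet they held 99.6%, 94.4%, 66.3% and 83.1% of the Ptgs1 UMIs. For Ptgs2 their part was 97.4%, 95.7%, 46.7% and 83.3%, and for Ptges it was 98.7%, 98.1%, 72.4% and 84.5%. The lowest of these shares came each time from the untreated Tnfr2-/- library, which also had the lowest share of mesenchymal cells. Of the Hpgd UMIs, mesenchymal cells held 0.514%, 0.207%, 0% and 0.200%.

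**Figure D1:**
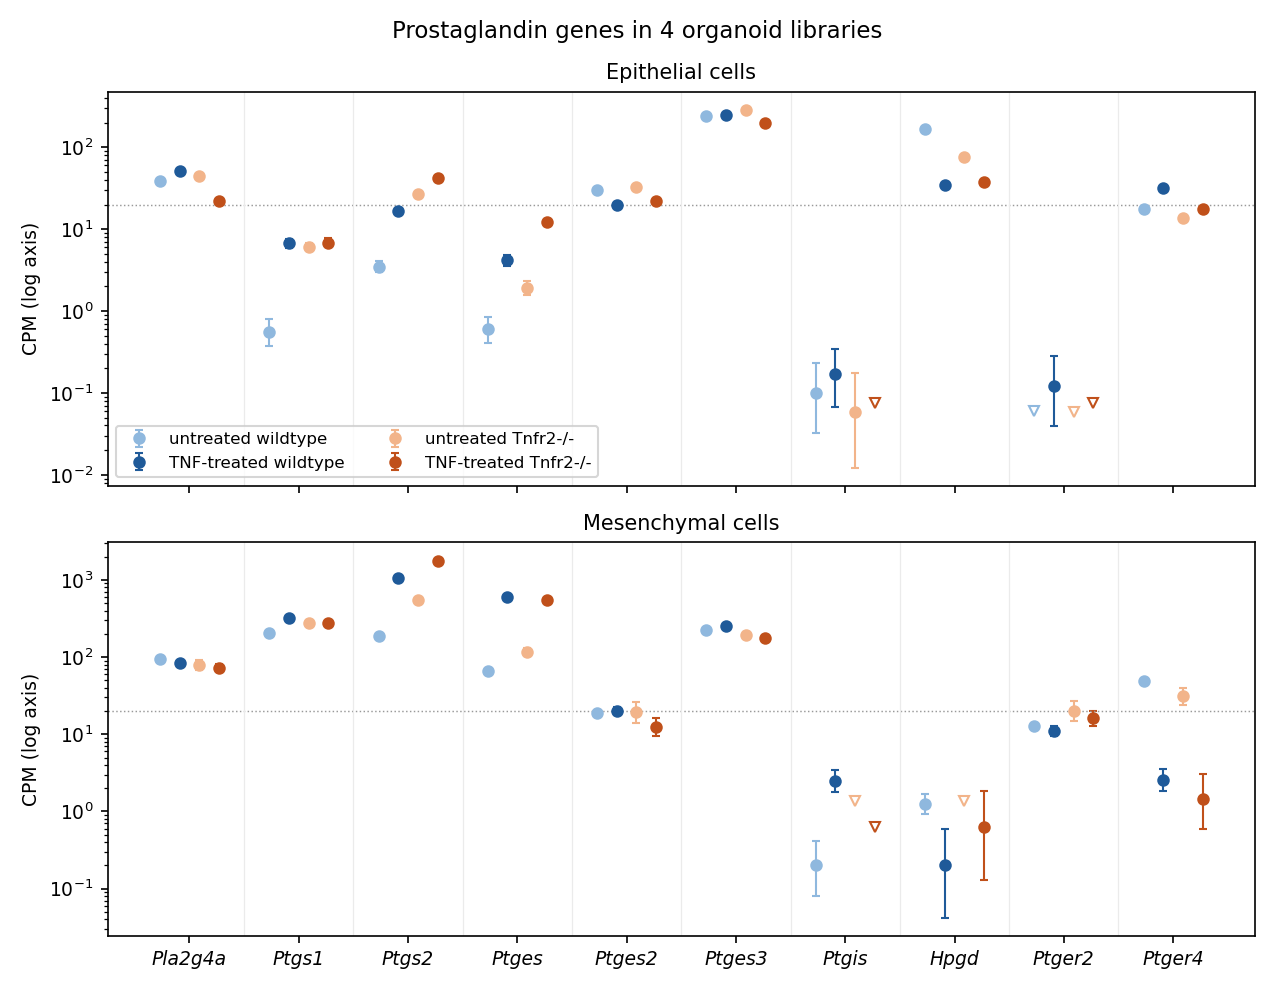
CPM (log axis) of the 10 members in epithelial and mesenchymal cells of each library, with exact Poisson 95% intervals as bars, open triangles at the level of 3 counts where no UMI was found, and a dotted line at 20 CPM. Mesenchymal Ptgs2 and Ptges were higher and Ptger4 lower in both TNF-treated libraries, and epithelial Hpgd was highest in untreated wildtype at 169 CPM.

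Pla2g4a, at the head of the pathway, was steady in mesenchymal cells and lower in 1 epithelial library. Its mesenchymal level was 93.5, 82.9, 79.5 and 73.1 CPM, and its epithelial level was 38.4, 51.0, 45.1 and 21.9 CPM. The epithelial level of the TNF-treated Tnfr2-/- library was thus below those of the other 3. Between TNF-treated and untreated Tnfr2-/- epithelium the log2 ratio was -1.04 (95% interval -1.16 to -0.93; here and below such intervals cover counting error only). By class, however, Pla2g4a was 53.1 CPM untreated and 47.6 CPM with TNF in Progenitor.1, and 21.8 and 18.3 CPM in Progenitor.2, a class of lower Pla2g4a that made up 22.8% of the untreated and 83.4% of the TNF-treated Tnfr2-/- epithelium. With classes weighted equally the log2 ratio was -0.19, and with trimmed-mean (TMM) scaling it was -0.88, under the limit used here.

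Ptgs1 in mesenchyme varied less between libraries than Ptgs2 did. Mesenchymal Ptgs1 stood at 207, 316, 276 and 280.0 CPM, with the lowest level in untreated wildtype, and no pair of libraries reached a 2-fold difference. Mesenchymal Ptgs2 stood at 187, 1040.1, 541 and 1767 CPM. Both TNF-treated libraries were above both untreated ones, and within each treatment Tnfr2-/- was above wildtype. The log2 ratio of TNF to untreated was 2.48 (2.43 to 2.52) in wildtype and 1.71 (1.62 to 1.80) in Tnfr2-/-.

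Ptges, the inducible prostaglandin E synthase, followed Ptgs2. It stood at 66.5, 605, 117 and 550.4 CPM in mesenchyme, high in both TNF-treated libraries and low in both untreated ones. The log2 ratio of TNF to untreated was 3.18 (3.12 to 3.25) in wildtype and 2.24 (2.05 to 2.43) in Tnfr2-/-. The other E synthases differed less: mesenchymal Ptges2 stood at 18.7, 20.3, 19.3 and 12.6 CPM, and Ptges3, also a co-chaperone, at 226, 251, 193 and 178 CPM. No TNF ratio of either reached 2-fold in mesenchyme.

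Single cells carried the same picture. When each cell was thinned to 5000 UMIs, Ptgs2 was found in 41.9%, 89.3%, 72.1% and 99.2% of mesenchymal cells, and in 1.11%, 3.44%, 4.75% and 8.51% of epithelial cells. Without thinning the mesenchymal shares were 72.6%, 98.0%, 87.8% and 100%, at median depths of 22642.5, 48633, 24549 and 37644.5 UMIs. The median mesenchymal cell held 2, 37.5, 7.5 and 54.5 Ptgs2 UMIs before thinning, and 1, 17, 2 and 17.5 Ptges UMIs. Cells with UMIs of both genes were 11.8%, 70.8%, 39.5% and 88.3% of thinned mesenchymal cells. At that depth, most mesenchymal cells of both TNF-treated libraries held the inducible cyclooxygenase together with the inducible synthase. Without thinning, Ptges was found in 1008 of 1430, 298 of 306, 73 of 90 and 121 of 122 mesenchymal cells. Cells with both genes were not counted without thinning, so the thinned shares do not show how many untreated cells lacked the pair. Ptgs1, by comparison, was found in 59.4%, 78.2%, 55.8% and 72.5% of thinned mesenchymal cells (unthinned 93.3%, 98.0%, 91.1% and 98.4%).

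**Figure D2:**
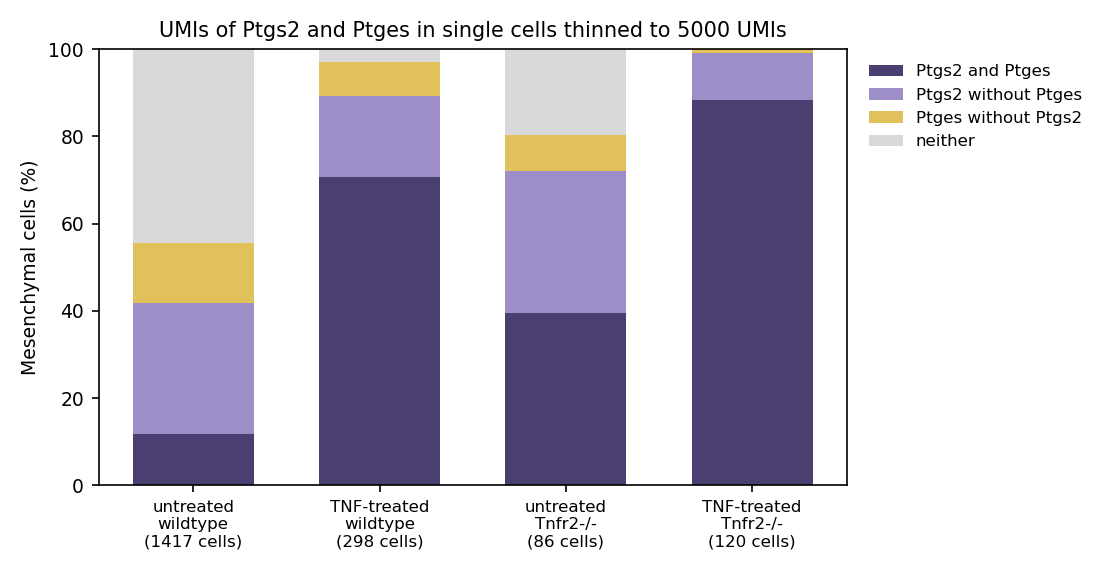
Share of mesenchymal cells (%, each thinned to 5000 UMIs) with UMIs of Ptgs2 and Ptges, of 1 of the pair, or of neither, in 1417, 298, 86 and 120 cells of the 4 libraries. Cells with both made up 11.8% of untreated wildtype mesenchyme and 88.3% of TNF-treated Tnfr2-/- mesenchyme.

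The receptors in mesenchyme went separate ways. Ptger4 stood at 48.8, 2.58, 31.2 and 1.47 CPM, high in both untreated libraries and near the floor in both TNF-treated ones. The log2 ratio of TNF to untreated was -4.24 (-4.74 to -3.78) in wildtype and -4.41 (-5.78 to -3.29) in Tnfr2-/-, the latter resting on 7 UMIs in the treated library. Ptger2 stood at 12.8, 11.1, 20.2 and 16.1 CPM, with no ratio of 2-fold between any compared pair. Thinned mesenchymal cells with a Ptger4 UMI were 20.0%, 1.34%, 12.8% and 0%, the last being 0 of 120 cells, which by the 3-count limit allows a share of cells with a UMI of up to 2.50% at that thinned depth. Unthinned, they were 55.6%, 8.82%, 40.0% and 4.92%. Ptger4 overlaps Ttc33, a gene of the opposite strand (4048 UMIs over all cells). The strand setting of the counting is not stated in the sources used here, and the part of reads from the overlap was not tested.

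Prostacyclin synthase was barely found. Ptgis gave 7, 37, 0 and 0 UMIs in mesenchymal cells and 5, 7, 3 and 0 in epithelial cells. The 37 UMIs of TNF-treated wildtype mesenchyme, 2.52 CPM, were the highest level. In TNF-treated Tnfr2-/- mesenchyme the upper end of the 95% Poisson interval of the 0 count was 0.773 CPM.

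Counted together, 7 of the 10 members reached 20 CPM in at least 1 library of the wildtype TNF pair in mesenchyme. Differences of at least 2-fold with at least 20 CPM are called here. Ptgs2 and Ptges were called higher and Ptger4 lower, beside 6.22% of 6683 genes higher and 7.56% lower. In Tnfr2-/- mesenchyme 7 members reached 20 CPM, and the calls were again Ptgs2 and Ptges higher and Ptger4 lower, beside 5.96% of 6354 genes higher and 7.05% lower. The members' median log2 ratio was 0.15 in wildtype and -0.12 in Tnfr2-/-, and that of all genes was 0.00 and -0.11.

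The TNF differences of mesenchyme also lay within a single class. The class that the annotation named after Ptges held 34, 304, 37 and 122 cells, and its name and its clustering used these values, so its levels are a description. Within it Ptgs2 stood at 458, 1045, 821 and 1767 CPM. Ptges stood at 187, 608, 97.3 and 550.4 CPM, and Ptger4 at 64.2, 2.26, 4.80 and 1.47 CPM. The TNF log2 ratios there were 1.19 and 1.11 for Ptgs2 and 1.70 and 2.50 for Ptges. For Ptger4 they were -4.83 in wildtype and -1.71 (-3.69 to 0.51) in Tnfr2-/-, where no library of the pair reached 20 CPM, so the Ptger4 call over all Tnfr2-/- mesenchyme rested on untreated cells of another class. Of all genes, TNF-treated wildtype had 13.9% called higher and 11.6% called lower within this class; for TNF-treated Tnfr2-/- these were 5.35% and 3.99%. The wildtype Ptgs2 and Ptges ratios were thus smaller inside the class than over all mesenchyme, and the 34 untreated wildtype cells were shallow, with a median of 5755 UMIs.

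The other mesenchymal classes of 20 cells or more were found in untreated cultures only. In untreated wildtype, Ptges was 65.0 CPM in Mesenchyme-Ifitm1, 65.7 in Mesenchyme-generic and 65.9 in Mesenchyme-proliferative. Ptger4 was less even, at 64.8 CPM in Mesenchyme-Ifitm1, 46.6 in Mesenchyme-proliferative and 11.1 in Mesenchyme-generic. In Mesenchyme-generic of untreated Tnfr2-/- it was 48.8 CPM, a log2 ratio to wildtype of 2.13 (1.66 to 2.60), opposite in sign to the -0.64 over all mesenchyme; 6.21% of genes were called higher in that class. In the class named after Ptges the same ratio was -3.74 (-5.74 to -2.18), from 4 against 22 UMIs, and 14.5% of genes were called lower there.

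**Figure D3:**
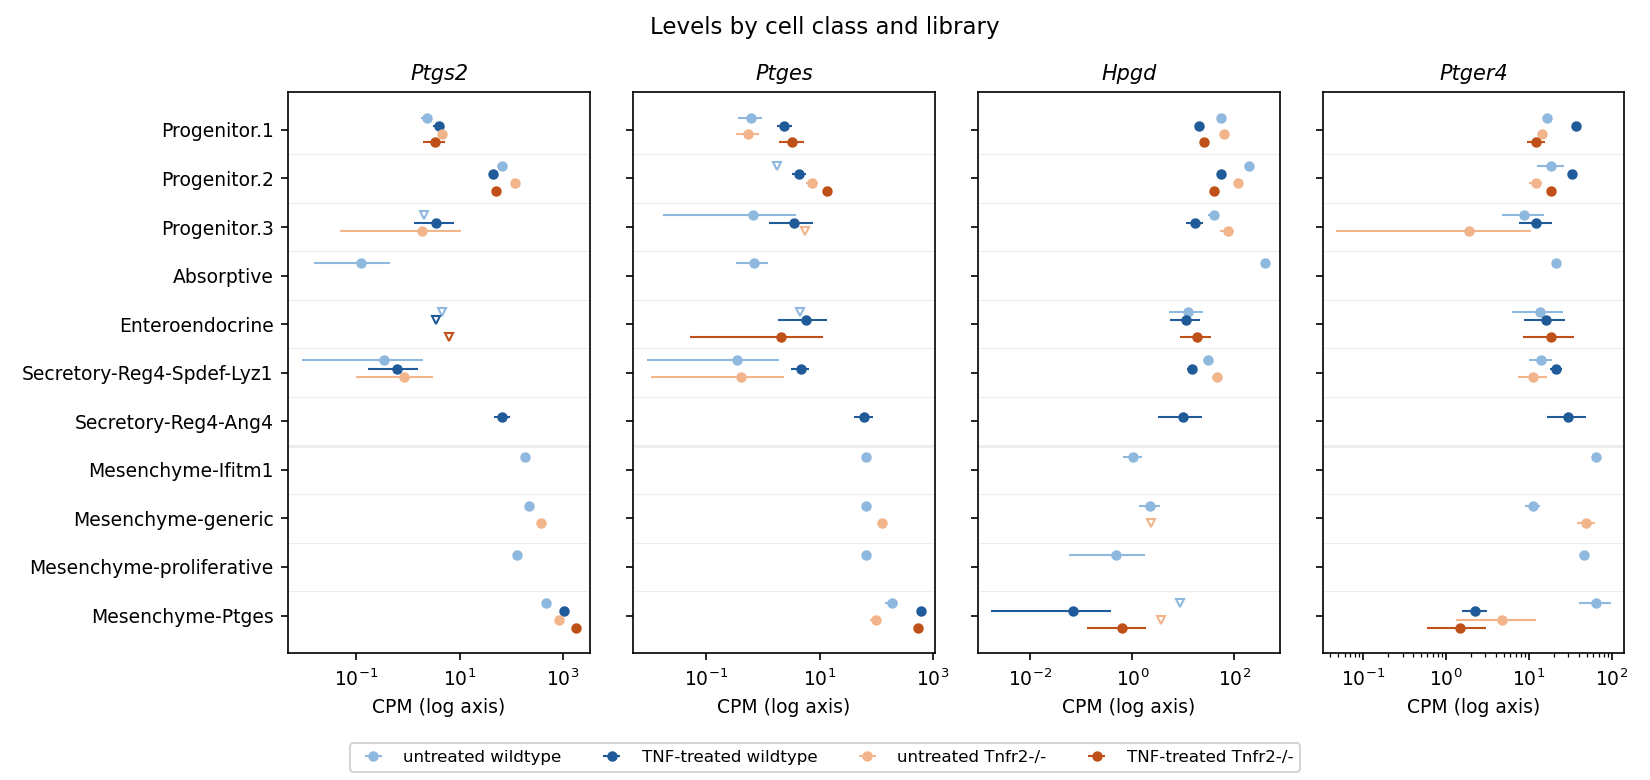
CPM (log axis) of Ptgs2, Ptges, Hpgd and Ptger4 in each class of at least 20 cells by library, with exact Poisson 95% intervals and open triangles at the level of 3 counts where no UMI was found. Epithelial Ptgs2 stood out in Progenitor.2, at 45.1 to 119 CPM, and in Secretory-Reg4-Ang4 of TNF-treated wildtype, at 66.7 CPM. Hpgd stood out in Absorptive of untreated wildtype, at 406 CPM.

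For mesenchymal Ptgs2, Ptges and Ptger4 the genotype ratios were smaller than the TNF ratios. For Ptger2, Ptges3 and Pla2g4a they were the larger in size. Untreated and with TNF, they were 0.66 and 0.54 for Ptger2, -0.22 and -0.50 for Ptges3, and -0.23 and -0.18 for Pla2g4a. Untreated, 7 members reached 20 CPM and Ptgs2 alone was called, higher in Tnfr2-/- with a log2 ratio of 1.53 (1.44 to 1.62), beside 4.15% of 6535 genes higher and 4.36% lower. Its ratio was 0.75 in Mesenchyme-generic and 0.84 in the class named after Ptges, and 0.81 with both weighted equally, which is under the limit. With TNF, 6 members reached 20 CPM and none was called, beside 6.34% of 6481 genes higher and 9.07% lower. Ptgs2 came nearest, at 0.76 (0.73 to 0.80), and Ptges differed by -0.14 (-0.20 to -0.07).

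Epithelial Hpgd, the gene of prostaglandin breakdown, was lower in both TNF-treated libraries. It stood at 169, 34.9, 75.4 and 37.6 CPM, highest in untreated wildtype and about equal in the TNF-treated pair. The log2 ratio of TNF to untreated was -2.28 (-2.36 to -2.20) in wildtype and -1.003 (-1.09 to -0.92) in Tnfr2-/-. The second ratio lies at the 2-fold limit and was -0.84 with TMM scaling. Thinned epithelial cells with an Hpgd UMI were 37.1%, 12.5%, 25.4% and 14.3%, beside 0.353%, 0%, 0% and 0.833% of mesenchymal cells. Unthinned, the epithelial shares were 72.2%, 35.9%, 69.7% and 51.4%, at median depths of 37245.5, 30306, 41057 and 37368.5 UMIs.

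Class makeup entered the pooled Hpgd values. Absorptive cells, a class for which Hpgd served the study as a marker, were 28.3% of untreated wildtype epithelium and held 76.6% of its Hpgd UMIs; the 4 libraries had 319, 19, 11 and 1 such cells. Hpgd was lower with TNF inside the progenitor classes as well. In Progenitor.1 it was 55.0, 20.3, 63.3 and 25.4 CPM, and in Progenitor.2 it was 190, 55.0, 116 and 39.4 CPM. The TNF log2 ratios were -1.44 and -1.32 in Progenitor.1 and -1.79 and -1.56 in Progenitor.2. Of all genes at 20 CPM or more, 0.683% and 0.966% were called lower in Progenitor.1 and 3.43% and 1.25% in Progenitor.2. In wildtype, Progenitor.3 (-1.22) and Secretory-Reg4-Spdef-Lyz1 (-1.01) were also lower.

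Epithelial Ptgs2 was low over all epithelium and concentrated in Progenitor.2. The pooled level was 3.50, 16.7, 26.6 and 42.5 CPM, lowest in untreated wildtype and highest in TNF-treated Tnfr2-/-. In Progenitor.2 it was 64.9, 45.1, 119 and 49.6 CPM, and in Progenitor.1 it was 2.32, 3.94, 4.52 and 3.32 CPM. Secretory-Reg4-Ang4 of TNF-treated wildtype, described below, stood at 66.7 CPM from 34 UMIs. Progenitor.2 made up 5.50%, 23.5%, 22.8% and 83.4% of the epithelial cells and held 61.9%, 82.7%, 87.4% and 98.99% of the epithelial Ptgs2 UMIs. The order of the pooled levels was therefore not that of the class: within Progenitor.2 both TNF-treated libraries were below their untreated partner, with log2 ratios of -0.53 (-0.82 to -0.22) in wildtype and -1.26 (-1.37 to -1.15) in Tnfr2-/-. The class was called lower in Tnfr2-/-, where 1.25% of its genes were, while the pooled ratio was 0.68 (0.57 to 0.78). The highest single cell of the class held 28 of 109, 143 of 572, 184 of 1176 and 183 of 1673 Ptgs2 UMIs. The intervals leave out this spread between cells.

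Fibroblast RNA in these cells was measured beside Ptgs2. In Progenitor.2, Ptgs2 was 34.7%, 4.34%, 21.9% and 2.81% of its mesenchymal level in the same library. Col3a1 was 0.0583%, 0.0659%, 0.0335% and 0.0604% of its own, and Vim 0.0322%, 0.192%, 0.0473% and 0.113%. Ptges and Ptgs1 were also measured in Progenitor.2, at 0, 4.41, 7.47 and 13.7 CPM and at 1.79, 11.3, 9.79 and 7.70 CPM, while Ptger2 had no UMI there in any library.

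Few cells carried the Progenitor.2 signal. Cells with at least 5 Ptgs2 UMIs, a limit chosen after the values were seen, numbered 7 of 62, 19 of 273, 39 of 233 and 75 of 716, and held 89.0%, 90.4%, 93.6% and 87.7% of the class's Ptgs2 UMIs. Against cells of the class with no Ptgs2 UMI, they had less Hpgd in every library: 3.45 against 341 CPM, 1.96 against 68.5, 67.3 against 164 and 19.7 against 47.5. In untreated and TNF-treated wildtype the Hpgd level of the Ptgs2-rich cells rested on 1 and 3 UMIs, at or under the floor of 3 counts. The Ptgs2-rich cells also had less Ptger4, at 0 against 34.3 CPM, 6.53 against 40.4, 5.24 against 18.3 and 6.78 against 23.4. Ptgs1 was 3.45, 3.92, 16.5 and 14.8 CPM against 1.11, 12.9, 6.84 and 4.88, higher in both Tnfr2-/- libraries and lower in TNF-treated wildtype. In untreated wildtype its levels were 1 UMI against 1. For Ptges the interval of the log2 ratio included 0 in the 3 libraries with any of its UMIs there, for example -0.35 to 0.37 in TNF-treated Tnfr2-/- (13.7 against 13.5 CPM). The Ptgs2-rich cells were deeper, with medians of 34724, 55377, 57211 and 67169 UMIs against 14182, 36830, 30469.5 and 35339.5, and their fibroblast markers summed to 3.45, 8.49, 4.44 and 22.8 CPM against 11.1, 12.1, 9.71 and 5.39 CPM, higher in TNF-treated Tnfr2-/- only. The 6 immune markers summed to 13.8, 24.2, 14.5 and 21.5 CPM against 5.53, 3.01, 15.6 and 10.7 CPM. The part of depth and of other cells' RNA was not tested.

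**Figure D4:**
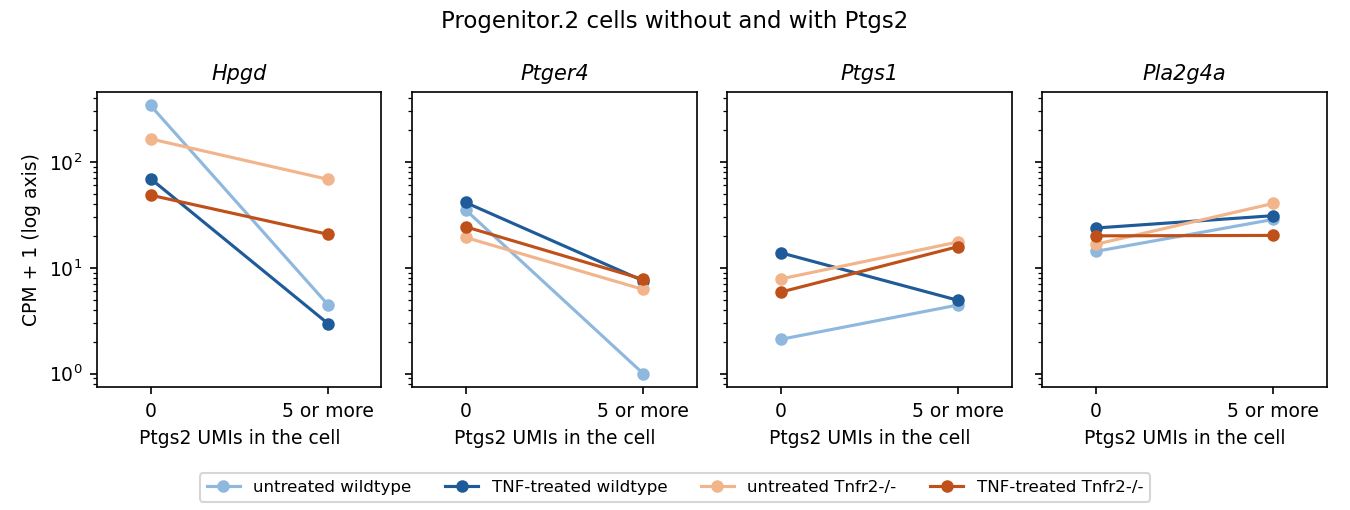
CPM + 1 (log axis) of Hpgd, Ptger4, Ptgs1 and Pla2g4a in Progenitor.2 cells with 0 and with at least 5 Ptgs2 UMIs, with a line for each library. Hpgd and Ptger4 were lower in the Ptgs2-rich cells of all 4 libraries.

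Epithelial Ptges was low but higher in both TNF-treated libraries, at 0.596, 4.18, 1.92 and 12.1 CPM. Its TNF log2 ratios were 2.81 (2.25 to 3.42) in wildtype and 2.66 (2.34 to 2.99) in Tnfr2-/-, with no library at 20 CPM and therefore no call. Epithelial Ptger4 stood at 17.7, 31.6, 13.6 and 17.5 CPM, highest in TNF-treated wildtype, with TNF log2 ratios of 0.84 (0.71 to 0.96) in wildtype and 0.36 (0.21 to 0.51) in Tnfr2-/-. In wildtype Progenitor.1 the ratio was 1.16 (0.99 to 1.34), from 16.4 to 36.7 CPM, in a class where 1.98% of genes were called higher. This was the opposite direction to Ptger4 in wildtype mesenchyme. Ptges2 stood at 29.7, 19.9, 33.2 and 22.3 CPM, lower in both TNF-treated libraries by less than 2-fold, and Ptges3 at 239, 248, 282 and 200.2 CPM. Ptger2 gave 0, 5, 0 and 0 UMIs in epithelium, 4 of the 5 from the Secretory-Reg4-Ang4 class described below.

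Of the 10 members, 5 reached 20 CPM in the wildtype TNF pair of epithelium, and Hpgd alone was called, lower, beside 2.66% of 5833 genes higher and 1.13% lower. The minimum left out Ptgs1 (log2 ratio 3.59), Ptges (2.81) and Ptgs2 (2.26), all with a higher level in TNF-treated wildtype, and with no minimum 4 members were past 2-fold upward, the other being Ptger2 with 5 UMIs against 0. In Tnfr2-/- epithelium 5 members reached 20 CPM, and Hpgd and Pla2g4a were called lower, beside 5.75% of 6143 genes higher and 8.48% lower; no member was called with TMM scaling, and Ptges (2.66) lay under the minimum. Over the members at 20 CPM the median log2 ratio was 0.052 in wildtype and -0.57 in Tnfr2-/-, and that of all genes was 0.04 and -0.12.

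Between genotypes, Ptgs2 was called higher in Tnfr2-/- epithelium both untreated, at a log2 ratio of 2.92 (2.70 to 3.16), and with TNF, at 1.34 (1.22 to 1.47). With classes weighted equally these ratios were 0.90 and 0.11, both under the limit. Hpgd was called lower untreated, at -1.17 (-1.22 to -1.11), and this direction turned to 0.27 over the progenitor classes alone. By class the ratio was 0.20 in Progenitor.1, 0.89 in Progenitor.3 and -0.71 (-0.89 to -0.53) in Progenitor.2. With TNF, Pla2g4a was called lower, at -1.22 (-1.33 to -1.10), or -0.57 with classes weighted equally. These were the calls among 5 members untreated, beside 2.67% of 6021 genes higher and 3.74% lower, and among 6 members with TNF, beside 5.40% of 6073 genes higher and 6.78% lower.

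Ptgs1, Ptges and Ptges2 lie on chromosome 2, within a window from 30 to 40 Mb, and Ptgis lies between 160 and 170 Mb. Genes of that first window were higher in Tnfr2-/- epithelium than all genes by a median of 0.24 untreated and 0.29 with TNF on the log2 scale, and by 0.07 and -0.05 in mesenchyme. Epithelial Ptgs1, at 0.556, 6.70, 6.02 and 6.84 CPM, had an untreated genotype log2 ratio of 3.44 (2.88 to 4.05) and one of 0.03 with TNF, all below 20 CPM. Epithelial Ptges had ratios of 1.68 (1.08 to 2.33) and 1.53 (1.28 to 1.79), also below 20 CPM, and Ptges2 had 0.16 and 0.17. The part of the chromosome in these ratios was not tested.

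In the class named Secretory-Reg4-Ang4, which only TNF-treated wildtype held in number (246 cells with a median of 1957.5 UMIs), Ptgs1 stood at 62.8 CPM, Ptgs2 at 66.7, Ptges at 60.8 and Ptger2 at 7.85. Fibroblast transcripts were present in the same cells, with Col3a1 at 175, Dcn at 210.0 and Vim at 302 CPM beside Epcam at 2325 CPM. Their part in the members' levels was not tested, and leaving the class out changed no count of called members by over 1.5 times.

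The wider pathway was read from 5 lists of 67 gene symbols, of which 65 were in the table. In mesenchyme with TNF, 24 reached 20 CPM in each genotype; 5 were called higher and 3 lower in wildtype, beside 6.22% and 7.56% of all genes, and 7 higher and none lower in Tnfr2-/-, beside 5.96% and 7.05%. Of the list of breakdown and transport, 4 of 8 were higher and none lower in each genotype, with a median log2 ratio of 0.92 in wildtype and 0.65 in Tnfr2-/- beside 0.00 and -0.11 over all genes. Its called members were Slco2a1, the transporter that brings prostaglandins into cells for breakdown, the efflux pumps Abcc4 and Abcc1, and Slco4a1. Slco2a1 stood at 0.316, 46.4, 1.38 and 37.5 CPM, nearly absent from both untreated libraries, with log2 ratios of 7.20 (6.35 to 8.21) and 4.77 (3.20 to 7.06). Abcc1 stood at 16.1, 71.2, 33.5 and 119.9 CPM, and Abcc4 at 17.5, 46.7, 12.4 and 41.9 CPM. Akr1b8, an aldo-keto reductase, was called higher in both genotypes (113, 504, 153 and 662 CPM). The lower calls of wildtype were Gstm2 (-1.83), Pla2g7 (-1.47) and Ggt5 (-4.40), and the further higher calls of Tnfr2-/- were Pnpla2 (1.41) and Pla2g12a (1.08).

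In epithelium with TNF, 2 of 23 list genes were called higher and 3 lower in wildtype, and 1 of 22 higher and 2 lower in Tnfr2-/-. Of all genes 2.66% were higher and 1.13% lower in wildtype, against 5.75% and 8.48% for the Tnfr2-/- pair. The higher calls were Cbr3 (1.65) and Abcc4 (1.56) in wildtype and Slco2a1 (1.27) in Tnfr2-/-. The lower calls were Cyp4f14 (-2.43), Cyp4f16 (-1.03) and Fam213b (-1.01) in wildtype, and Mgst2 (-1.33) and Akr1b3 (-1.24) in Tnfr2-/-. Between genotypes, 2 of 22 were higher and 5 lower in Tnfr2-/- epithelium both untreated, beside 2.67% and 3.74% of all genes, and with TNF, beside 5.40% and 6.78%. Anxa1, which encodes a phospholipase A2 inhibitor, was higher in both (685, 810.0, 1555 and 2951 CPM), and Pla2g10, a secreted phospholipase A2, was lower in both (177, 105, 41.9 and 33.5 CPM). Untreated, the other higher call was Abcc4 (1.12), and the other lower calls were Cyp4f14 (-4.30), Mgst2 (-1.55), Cyp4f16 (-1.35) and Mgst3 (-1.25). With TNF, the other higher call was Slco2a1 (2.52), and the other lower calls were Mgst2 (-1.97), Cbr3 (-1.79), Ptgr1 (-1.29) and Mgst3 (-1.02).

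In mesenchyme between genotypes, 2 of 21 list genes were higher and 1 lower untreated, beside 4.15% and 4.36% of all genes, and 4 of 24 higher and none lower with TNF, beside 6.34% and 9.07%. Untreated, Ptgir, the prostacyclin receptor, was higher in Tnfr2-/- (1.95), as was Abcc1 (1.06), and Ggt5 was lower (-1.57). With TNF the higher calls were Gstm2 (1.63), Pla2g7 (1.60), Lta4h (1.09) and Pla2g12a (1.07). The other EP receptors stayed under 20 CPM in every library: mesenchymal Ptger3 stood at 7.56, 0.544, 17.5 and 5.87 CPM and Ptger1 at 3.13, 1.56, 2.76 and 0.629 CPM. Of the 9 receptors listed beside EP2 and EP4, 1 or 2 reached 20 CPM in each comparison.

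Over 27 sums of a class in a library, the genes whose log2(CPM + 1) followed a member most closely were taken from 10113 genes, as a description. These sums share libraries, and the split between mesenchymal and epithelial classes runs through all of them. Nearest to Ptgs1 were Itga5 (Pearson r 0.975), Angptl2 (0.969) and Ppp1r18 (0.969), and nearest to Ptges were Itga5 (0.968), Mmp10 (0.964) and Mmp3 (0.960). Nearest to Ptgs2 were Inhba (0.970), Arhgap22 (0.960) and Plau (0.960). Hpgd was followed by Myo1a (0.956), Cltb (0.949) and Atp8a1 (0.948), the first of them a brush border myosin.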

How the data were processed

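Cells of colonic organoid cultures (1 library for each of 4 conditions) had been captured with 10x Genomics chemistry. Per the labels and the study's methods, the authors made the deposited UMI counts with Cell Ranger 5.0.0 against mm10, dropped cells under 100 UMIs, and named classes from Leiden clusters in monocle3. The counts are raw and whole, with no row that names no gene. The authors removed epithelial-mesenchymal doublets from their epithelial analysis by marker expression; no doublet caller was run here. In the deposited files 3 barcodes occurred in 2 libraries.

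Here, UMIs were summed over the epithelial or mesenchymal classes of a library and divided by the total to give CPM, with exact Poisson 95% intervals. Differences are log2 ratios of CPM with exact conditional intervals, a count of 0 being set to a floor of 3 counts. A difference was called at 2-fold or more with 20 CPM or more in 1 library of the pair; all genes of the table gave the background. Sums by class needed 20 cells. Equal class weights took only the classes with 20 cells or more in both libraries of a pair. For shares of cells, each cell was thinned to 5000 UMIs, which left out 405 shallower cells (Clopper-Pearson intervals). Steps were tested on simulated counts. Python 3.11.15, numpy 2.4.6, scipy 1.17.1 and pandas 2.3.3 were used, and edgeR 4.0.16 in R 4.3.3 for the TMM alternative only.

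All 10 members are named; of the 5 pathway lists, up to 8 called genes per comparison with the largest ratios; and for Ptgs1, Ptgs2, Ptges and Hpgd the 3 genes nearest in pattern. The members and lists were chosen with earlier results of these data known. Alternatives were other pseudocounts, CPM minimums, TMM scaling, weights of cells and classes, cell filters and thinning depths.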

Additional observations from a re-analysis of the deposited data

Results flagged for a closer look

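Several differences pointed opposite ways in the compared pairs; with 1 library per condition none of these contrasts was tested. With TNF, epithelial Pla2g4a had a log2 ratio of 0.41 in wildtype and -1.04 in Tnfr2-/-, and epithelial Ptges3 had 0.052 and -0.49. Inside Progenitor.1 these Ptges3 ratios were 0.002 and -0.23, and inside Progenitor.2 they were -0.05 and -0.10. In Tnfr2-/-, Progenitor.2 had less Ptges3 than Progenitor.1 and made up 22.8% of untreated and 83.4% of TNF-treated epithelium. The part of class makeup in the pooled Ptges3 ratios was not tested. Between genotypes, epithelial Ptges3 differed by 0.24 untreated and -0.31 with TNF, epithelial Hpgd by -1.17 and 0.11, and epithelial Pla2g4a by 0.23 and -1.22. For Ptges3 the genotype ratios were 0.04 and -0.19 inside Progenitor.1, and 0.18 and 0.13 inside Progenitor.2. In mesenchyme the genotype ratio of Ptgs1 was 0.41 untreated and -0.17 with TNF, and that of Ptges was 0.81 and -0.14. By class, the untreated ratios differed in sign. In the class named after Ptges they were -0.76 (-1.09 to -0.41) for Ptgs1 and -0.94 (-1.43 to -0.45) for Ptges. In Mesenchyme-generic they were 0.76 and 0.97. With TNF, the ratios in the class named after Ptges were -0.18 and -0.14, so no change of sign was seen inside that class.

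The 35 cells without a class, 31 of untreated wildtype and 4 of untreated Tnfr2-/-, entered no comparison. Over their 2450762 UMIs, where 3 counts equal 1.22 CPM, they held Ptges3 at 232 CPM, Hpgd at 78.3, Ptgs1 at 56.3, Ptgs2 at 53.5, Pla2g4a at 47.7, Ptger4 at 24.9, Ptges2 at 24.1, Ptges at 13.5 and Ptger2 at 4.08 CPM. These are sums over all 35 cells, whose median depths were 66566 and 88648 UMIs in the 2 libraries.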

How the results depend on the processing

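Recomputed counts of called members stayed within 1.5 times in 67 cases and left that range in 17. The count for TNF in Tnfr2-/- mesenchyme (3) stayed within it under every alternative run, but that range leaves room for the loss of 1 call. In the class named after Ptges alone, Ptgs2 and Ptges were called and Ptger4 was not, at 4.80 CPM untreated and 1.47 CPM with TNF. Equal class weights used this class alone for that pair, since no other had 20 cells in both libraries. For TNF in wildtype epithelium (1) it was 3 at a minimum of 5 CPM, 5 with no minimum and 2 with each cell weighted equally. For TNF in Tnfr2-/- epithelium (2) it was 1 with a pseudocount of 1 CPM or progenitor classes only, and 0 with a pseudocount of 10 CPM or TMM. For genotype in untreated epithelium (2) it was 4 with no minimum, 0 with classes weighted equally and 1 with progenitor classes only, where the Hpgd ratio reversed to 0.27. For genotype in TNF-treated epithelium (2) it was 0 with a pseudocount of 10 CPM or classes weighted equally, 4 with no minimum and 1 with each cell weighted equally. In mesenchyme, TNF in wildtype (3) gave 5 with no minimum, genotype untreated (1) gave 0 with classes weighted equally, and genotype with TNF (0) gave 1 with no minimum. Recomputed log2 ratios stayed within the counting interval of the reported value in 381 cases and left it in 119. In 1 further case the ratio of a called member reversed in sign. Changes of sign were counted apart for called members only, so uncalled ratios that changed sign lie within the other numbers. Shares of cells, which follow the thinned depth, left theirs in 128 cases and stayed in 32. Where class weights or classes changed a count, class makeup entered by construction; elsewhere the cause was not tested. No paired analysis was possible because each condition had 1 library. The Tnfr2-/- mesenchymal values rest on 90 and 122 cells, and those of Ptgis on few UMIs.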

Other observations

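Progenitor.2 cells with at least 5 Ptgs2 UMIs differed from cells of the class without Ptgs2 in more than the prostaglandin genes; the genes named here had the largest differences of 1 direction in all 4 libraries, and the limit of 5 UMIs was chosen after the data were seen. Higher were Inhba (an activin subunit), Ankrd1, Fn1 (fibronectin), Cdkn2a (a cell cycle inhibitor), Ctla2a, Flna, Thbs1, Msn, Enah and Basp1. Inhba was also the gene nearest to Ptgs2 over all classes, in sums that hold these same cells. Inhba stood at 100.1, 282, 320.2 and 280 CPM in the Ptgs2-rich cells against 0, 4.26, 9.35 and 11.6 CPM, in the order of libraries used above. Ankrd1, a target gene of the Hippo pathway, stood at 162, 34.6, 94.8 and 109.6 CPM against 0, 0, 4.50 and 5.07 CPM. Lower were Car1, Clca4b, Cyp2c55, Tff3, Lypd8, Muc13, Abcb1a, Itih5, Dmbt1 and Muc3, genes of which Car1 and Lypd8 are known from mature colonocytes. Car1 stood at 20.7, 1.96, 4.03 and 22.1 CPM against 5219, 1745, 1144 and 704 CPM. At a limit of 10 Ptgs2 UMIs, 7 of the 10 higher and 6 of the 10 lower genes were named again. Those cells are a part of the cells at the limit of 5 and were set against the same cells without Ptgs2, so this is no independent check. The Ptgs2-rich cells of untreated wildtype numbered 7, and their values rest on those.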
